A study of Mus musculus with 19 samples.

Results

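Twist1, Twist2, Zeb1, Zeb2, Snai1, Snai2 and Prrx1 encode 7 transcription factors known for driving epithelial cells into a mesenchymal state. They were chosen by gene symbol, as 7 of the 51912 gene rows of the table for normal lung and non-small cell lung cancer (NSCLC) and 7 of the 24421 gene rows of the table for immunotherapy-sensitive and immunotherapy-resistant NSCLC. RNA was measured by bulk sequencing of mouse organoids, cell cultures grown in 3 dimensions. The groups were normal lung organoids (n = 3), NSCLC organoids (n = 4), NSCLC organoids sensitive to immunotherapy (n = 3) and NSCLC organoids resistant to it (n = 9). The sources used here do not give the strain, genotype, age, immunotherapy agent or number of animals or organoid lines behind the libraries. The 2 comparisons ask how these genes differ between tumour and normal organoids and between resistant and sensitive tumour organoids.

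TWIST1 and TWIST2 are basic helix-loop-helix proteins, which bind DNA as dimers with E proteins. SNAI1 and SNAI2 are zinc finger proteins, ZEB1 and ZEB2 carry zinc finger clusters on both sides of a homeodomain, and PRRX1 is a paired-related homeodomain protein of limb, craniofacial and lung mesenchyme. The SNAIL, ZEB and TWIST proteins bind E-boxes in the promoters of epithelial genes such as Cdh1, which encodes the adhesion protein E-cadherin, and recruit corepressors there. ZEB transcripts are in turn targets of the miR-200 family of microRNAs, and fibroblasts and macrophages express several of these factors as part of their own programmes.

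The miR-200 family is shown because its members differ in the seed that pairs with ZEB transcripts. The mature sequences below are from RefSeq, 5′ to 3′, with the seed (bases 2 to 8) in capitals. The first pair shares the seed AACACUG and the other 3 share AAUACUG, which differs from it by 1 base.
mmu-miR-200a-3p: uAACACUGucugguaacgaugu
mmu-miR-141-3p: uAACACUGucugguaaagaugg
mmu-miR-200b-3p: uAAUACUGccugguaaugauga
mmu-miR-200c-3p: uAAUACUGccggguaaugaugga
mmu-miR-429-3p: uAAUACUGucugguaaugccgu

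Promoters are shown for Snai1 and for 5 of the epithelial genes named further on that carry the E-box form CAGGTG, the form to which SNAIL and ZEB proteins are known to bind. The windows hold the 250 bases before a RefSeq start (GRCm38.p6), written 5′ to 3′ on the strand of the gene, with CAGGTG or its reverse complement CACCTG in capitals. Both forms are also instances of the general E-box CANNTG. Of the 5 factors with a window (Twist1, Twist2, Zeb2, Snai1 and Prrx1), 1 holds a match, Snai1, at position -126, where -1 is the last base before the start. The other 5 windows belong to Epcam, Crb3, Krt8, Gjb2 and Spint2, epithelial adhesion, polarity, keratin, gap junction and protease inhibitor genes whose levels follow further on. Cldn4 and 1 window of Cldn7 also hold a match and are not printed.
Snai1, chr2:167537945-167538194, + strand: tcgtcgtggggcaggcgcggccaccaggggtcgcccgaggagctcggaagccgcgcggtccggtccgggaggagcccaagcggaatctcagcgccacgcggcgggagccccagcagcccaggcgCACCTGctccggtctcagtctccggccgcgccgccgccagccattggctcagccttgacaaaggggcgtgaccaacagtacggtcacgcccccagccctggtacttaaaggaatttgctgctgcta
Epcam, chr17:87635729-87635978, + strand: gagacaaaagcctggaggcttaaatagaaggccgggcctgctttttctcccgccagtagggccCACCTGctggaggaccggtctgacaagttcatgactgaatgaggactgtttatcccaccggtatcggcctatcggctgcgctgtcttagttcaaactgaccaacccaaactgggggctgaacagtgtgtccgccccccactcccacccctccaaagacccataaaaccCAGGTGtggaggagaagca
Crb3, chr17:57061951-57062200, + strand: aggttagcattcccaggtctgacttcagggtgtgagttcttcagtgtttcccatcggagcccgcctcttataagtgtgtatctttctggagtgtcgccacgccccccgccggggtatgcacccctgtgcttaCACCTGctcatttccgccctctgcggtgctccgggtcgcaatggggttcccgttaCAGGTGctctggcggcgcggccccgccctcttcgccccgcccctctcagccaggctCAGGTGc
Krt8, chr15:102004343-102004592, − strand: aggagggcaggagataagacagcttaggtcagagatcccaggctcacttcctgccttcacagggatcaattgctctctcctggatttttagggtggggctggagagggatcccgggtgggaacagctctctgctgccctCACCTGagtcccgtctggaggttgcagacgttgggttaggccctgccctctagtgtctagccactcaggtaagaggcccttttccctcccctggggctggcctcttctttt
Gjb2, chr14:57104703-57104952, − strand: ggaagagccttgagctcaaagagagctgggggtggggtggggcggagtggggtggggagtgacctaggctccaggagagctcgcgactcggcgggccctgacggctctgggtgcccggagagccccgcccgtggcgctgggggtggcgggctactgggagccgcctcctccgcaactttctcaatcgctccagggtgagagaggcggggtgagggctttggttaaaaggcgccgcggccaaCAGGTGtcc
Spint2, chr7:29281978-29282227, − strand: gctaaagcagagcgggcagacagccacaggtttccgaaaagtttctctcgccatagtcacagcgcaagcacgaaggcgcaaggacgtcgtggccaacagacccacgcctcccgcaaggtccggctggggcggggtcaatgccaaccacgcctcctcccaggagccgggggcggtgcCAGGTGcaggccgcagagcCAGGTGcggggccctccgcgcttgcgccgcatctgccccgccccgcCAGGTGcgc

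CAGGTG on either strand occurred in 17.2% of the 32851 RefSeq windows of this length, and CANNTG in 66.2%. Counted by gene, 19.4% of 27025 genes had at least 1 window with CAGGTG. In the list of epithelial junction and polarity genes, 19 of the 27 genes with a window held the motif (70.4%). That list was drawn up from genes described as repressed by these factors, so its share is not independent evidence of binding. A match describes the letters in a window and not an occupied site.

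In the mm10 assembly Twist1 lies on chromosome 12 from 33957671 to 33959829, Twist2 on chromosome 1 from 91801461 to 91848028, and Prrx1 on chromosome 1 from 163245119 to 163313710. Zeb1 lies on chromosome 18 from 5591860 to 5775467, Zeb2 on chromosome 2 from 44983632 to 45117395, Snai1 on chromosome 2 from 167538195 to 167542814, and Snai2 on chromosome 16 from 14705852 to 14709385. Genes on the opposite strand overlap Twist2, Zeb1, Zeb2 and Prrx1. The sources used here do not say whether counting used strand, and those overlapping genes with a row held at most 20 counts in a library (Zeb2os).

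Levels are given as CPM, counts scaled to a common library size with TMM factors, and a gene was called higher or lower at an adjusted p under 0.05 in edgeR's quasi-likelihood test over all genes that passed the filter on low counts. All 7 factors passed that filter in both tables. Those with few or no counts in a group, such as Prrx1 in NSCLC and Twist1 in sensitive, passed through the other group alone. Such a factor could be called only as lower in NSCLC or higher in resistant, so its call partly follows from the filter. Normal libraries held 20138197 to 21060762 counts, NSCLC libraries 122967042 to 154479953, sensitive libraries 15292427 to 18716749 and resistant libraries 11988677 to 24462955. Depth thus went with the groups in the first table, and the alternative in which NSCLC counts were thinned to the normal depth is given with the sensitivity of the results. In bulk RNA, fewer cells of a type and less RNA per cell cannot be told apart.

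All 7 factors fell in NSCLC, and 5 of them, Twist1, Twist2, Zeb1, Snai1 and Prrx1, rose in resistant organoids. Zeb2 and Snai2 did not pass the test in the second comparison. Among all genes tested, 25% of 19932 were called lower and 53.5% called in either direction in NSCLC. Of 14360 tested in the second table, 19.3% were called higher and 37.5% in either direction in resistant. The median log2 fold change of the 7 factors was -5.86 in NSCLC, against 0.11 over all tested genes. That median is the value of Twist2, which rests on 2 NSCLC counts, so setting Prrx1 at its bound cannot move it. In resistant the median of the 7 factors was 5.29 against 0.06.

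**Figure D1:**
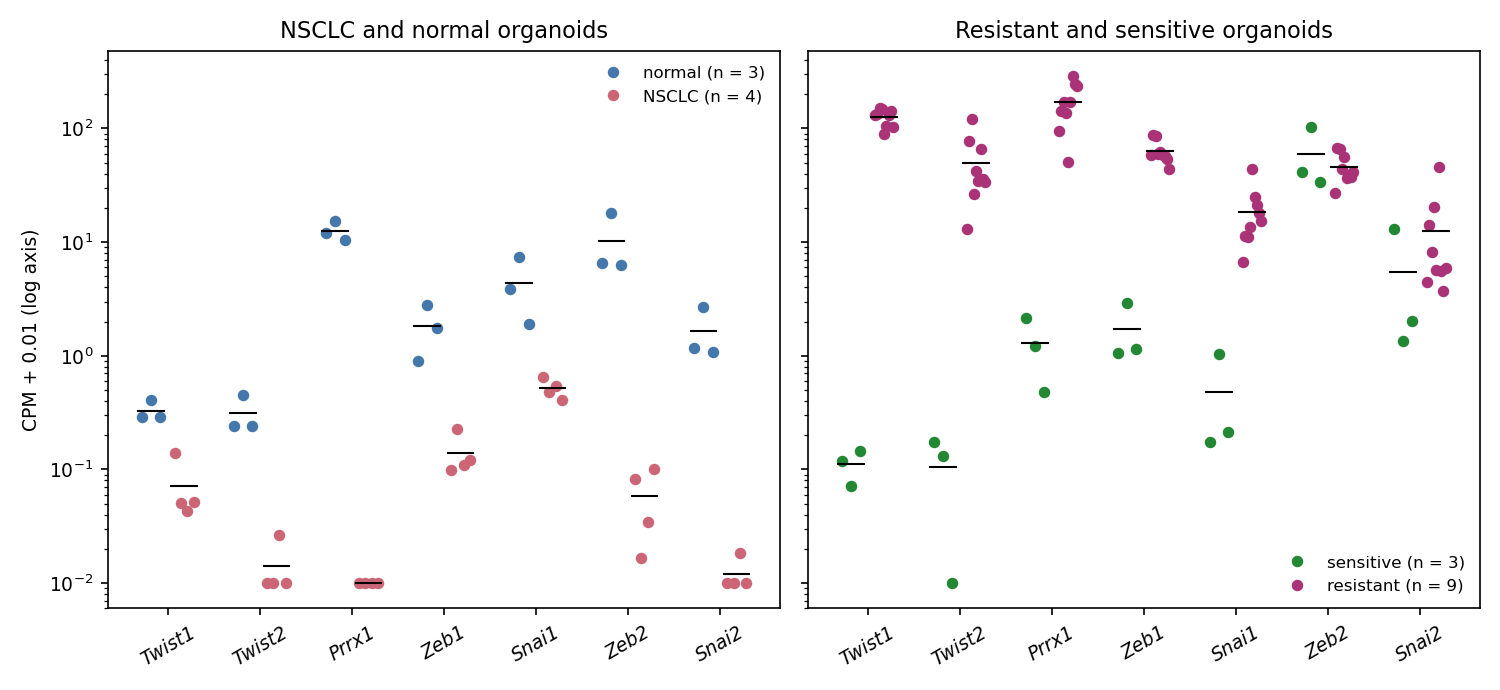
CPM + 0.01 on a log axis for each library, with a black bar at the group mean; a point at the bottom is a library with 0 counts. In the left panel (normal, n = 3; NSCLC, n = 4) every NSCLC point lies below every normal point of the same gene, and in the right panel (sensitive, n = 3; resistant, n = 9) the groups are apart for Twist1, Twist2, Prrx1, Zeb1 and Snai1 and overlap for Zeb2 and Snai2.

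The TWIST genes were near the limit of detection in 3 of the 4 groups and high in the resistant one. Twist1 had 0.280, 0.395 and 0.277 CPM in normal libraries 1 to 3, which is 6, 9 and 6 counts. In NSCLC libraries 1 to 4 it had 0.129, 0.0403, 0.0331 and 0.0418 CPM, which is 16, 6, 4 and 6 counts. All 4 NSCLC libraries lay below the normal ones, library 1 nearest to them (log2 fold change, log2FC, of -2.37 ± 0.60 SE, adjusted p = 0.0110). In the sensitive libraries 2, 1 and 2 counts of Twist1 gave 0.110, 0.0609 and 0.135 CPM. The 9 resistant libraries ran from 89.5 (library 5) through a median of 132 to 151 CPM (library 3). No resistant library came near a sensitive one, and the resistant libraries spread little among themselves, with a highest to lowest ratio of 1.69 (log2FC 10.19 ± 0.34 SE, adjusted p = 2.39e-09).

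Twist2, the paralog expressed in dermal and other mesenchyme, showed the same directions at lower counts. Normal libraries had 0.234, 0.439 and 0.231 CPM (5, 10 and 5 counts), and in NSCLC only library 3 had any counts of it, 2 in all. Pooled over libraries the normal level was 81.7 times the NSCLC level, with a 95% exact interval from 19.9 to 721 that covers counting error only (adjusted p = 0.00123). The sensitive libraries had 0.164, 0.122 and 0 CPM of Twist2. Resistant libraries ran from 13.1 CPM in library 1 through a median of 36.1 to 121 CPM in library 3. Every resistant library was above every sensitive one, and Twist2 varied 9.19-fold among the resistant libraries (log2FC 8.88 ± 0.98 SE, adjusted p = 3.93e-05). The number of such genes is read against 14.8% of all tested genes whose resistant libraries all lay above the sensitive ones.

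Prrx1 was clear in normal organoids and had 0 counts in all 4 NSCLC libraries. The normal libraries had 12.1, 15.2 and 10.4 CPM. Against 3 counts in the shallowest NSCLC library, Prrx1 was at least 506-fold lower in NSCLC (adjusted p = 2.85e-05). Of all tested genes, 27.7% had every NSCLC library below every normal one. In sensitive libraries Prrx1 had 2.14, 1.22 and 0.472 CPM. Resistant libraries ran from 50.9 CPM (library 5) through a median of 171 to 289 CPM (library 7), and the groups did not overlap (log2FC 7.04 ± 0.70 SE, adjusted p = 1.84e-05).

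Its paralog Prrx2 did not follow it in the tumour. Prrx2 had 0.934, 5.98 and 0.508 CPM in the normal libraries, listed by replicate, and 12.0 to 130.1 CPM in NSCLC, where it rose (log2FC 4.84 ± 1.14 SE, adjusted p = 0.00767). In resistant organoids both paralogs rose. Prrx2 went from 1.11 ± 0.959 CPM (SD, n = 3) in sensitive to 35.0 ± 32.1 CPM (SD, n = 9) in resistant, with 115 CPM in library 5, the library with the least Prrx1 (log2FC 4.98 ± 0.99 SE, adjusted p = 0.00195).

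The ZEB paralogs parted in the resistant comparison. Zeb1 had 0.888, 2.81 and 1.76 CPM in the normal libraries and 0.0884, 0.215, 0.0993 and 0.112 CPM in the NSCLC libraries. All NSCLC libraries lay below the normal ones (log2FC -3.80 ± 0.52 SE, adjusted p = 5.53e-04). Sensitive libraries had 1.04, 2.93 and 1.15 CPM of Zeb1. Resistant libraries ran from 44.4 CPM (library 9) through a median of 59.0 to 86.8 CPM (library 2), all above the sensitive ones (log2FC 5.20 ± 0.40 SE, adjusted p = 3.92e-06).

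Zeb2, the ZEB gene that macrophages are known to express, had 6.49, 18.1 and 6.28 CPM in the normal libraries. In NSCLC it had 0.0723, 0.00671, 0.0248 and 0.0906 CPM, from 9, 1, 3 and 13 counts (log2FC -7.69 ± 0.81 SE, adjusted p = 1.38e-04). In the sensitive libraries Zeb2 stood at 41.4, 103 and 33.6 CPM, far above Zeb1 there. Resistant libraries ran from 26.8 (library 1) through a median of 41.1 to 66.7 CPM (library 2) and all lay below sensitive library 2, library 1 being below every sensitive one. The difference was not called (log2FC -0.37 ± 0.33 SE, adjusted p = 0.401), and without sensitive library 2 its sign turned (log2FC 0.29, adjusted p = 0.520). The authors' deposited table gives Zeb2 a log2 fold change of -0.40 with an adjusted p of 0.408.

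Per kilobase of the longest coding transcript, the ratio of Zeb1 to Zeb2 was between 0.0395 and 0.0537 in the 3 sensitive libraries and between 1.70 and 3.46 in the 9 resistant ones. Zeb1 thus changed from the lesser to the greater of the ZEB transcripts in every resistant library, while the Zeb2 level overlapped between the groups. In normal libraries the ratio was 0.215 to 0.439, and in NSCLC it was 1.92 to 50.3 on Zeb2 counts of 13 or fewer.

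**Figure D2:**
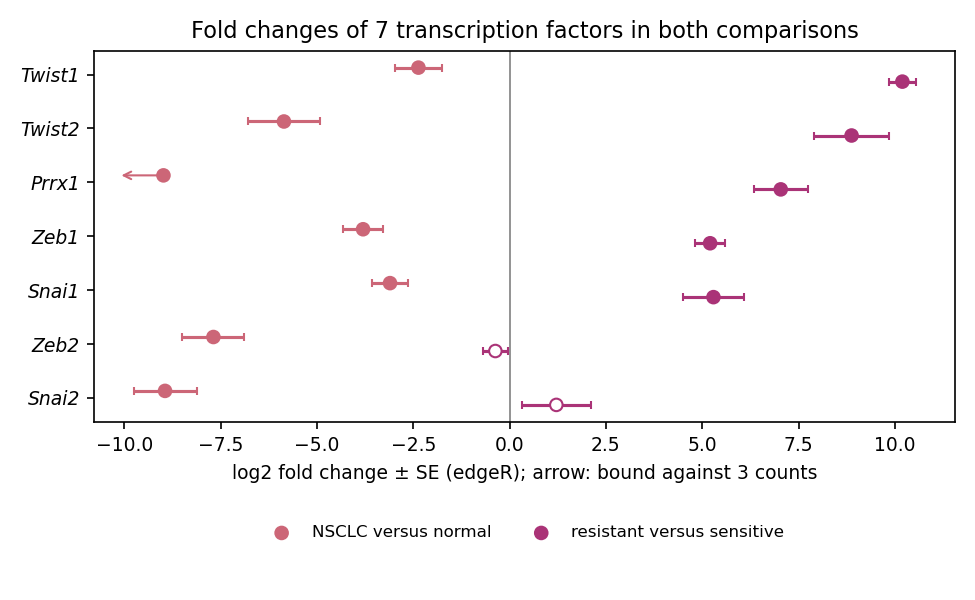
Log2 fold change ± SE of each factor in NSCLC against normal (n = 4 and 3) and in resistant against sensitive (n = 9 and 3), filled where the adjusted p was under 0.05; the arrow marks the bound of Prrx1, which had 0 counts in NSCLC. All 7 points for NSCLC lie left of 0, and for resistant 5 lie between 5.20 and 10.19 while Zeb2 (-0.37) and Snai2 (1.21) are open.

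Snai1 was the SNAIL gene called higher in the resistant group. It had 3.88, 7.34 and 1.89 CPM in normal libraries and 0.635, 0.470, 0.530 and 0.397 CPM in NSCLC, where it was the most abundant of the 7 per kilobase (log2FC -3.10 ± 0.46 SE, adjusted p = 8.55e-04). Sensitive libraries had 0.164, 1.04 and 0.202 CPM of Snai1. The resistant libraries ran from 6.66 CPM (library 1) through a median of 15.4 to 44.4 CPM (library 5) and did not overlap the sensitive ones (log2FC 5.29 ± 0.79 SE, adjusted p = 3.01e-04).

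Snai2, also named Slug, had 1.17, 2.68 and 1.06 CPM in normal libraries and a single count in the whole NSCLC group, in library 3. The pooled normal level was 891 times the NSCLC level, with a 95% exact interval from 157 to 35502 that rests on 1 NSCLC count and covers counting error only (adjusted p = 6.67e-05). In sensitive libraries Snai2 had 12.9, 1.34 and 2.02 CPM, library 1 being the high one. Resistant libraries ran from 3.71 (library 8) through a median of 5.94 to 45.6 CPM (library 6), so that most of them lay between sensitive libraries. Snai2 was not called (log2FC 1.21 ± 0.89 SE, adjusted p = 0.302), and the authors' deposited table gives it an adjusted p of 0.226. When 1 library was left out, its log2FC ran from 0.64 to 2.94 and its adjusted p from 0.0651 to 0.597. Its estimate thus depended on single libraries, though it was not called in any of these refits. Snai3, a SNAIL paralog, rose in NSCLC from 0.667 ± 0.179 to 3.45 ± 1.44 CPM (adjusted p = 0.00224) and was at 0.820 ± 0.189 and 0.622 ± 0.485 CPM in sensitive and resistant (adjusted p = 0.703).

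The order of the factors by level per kilobase also differed between groups. In normal organoids Snai1 (median 2.39 CPM per kilobase), Prrx1 (1.85), Zeb2 (0.712) and Snai2 (0.578) followed each other with overlapping ranges, and Zeb1 (0.303) lay apart below Snai2. In sensitive organoids Zeb2 (4.54) and then Snai2 led and overlapped, with Zeb1 (0.198) apart below them and Twist1 (0.0673) and Twist2 (0.0483) last. In resistant organoids Twist1 led with a median of 81.3 and a range from 55.0 to 93.0 CPM per kilobase, apart from Prrx1 (26.3), the next. Below Prrx1, each of Twist2 (14.3), Zeb1 (10.2), Snai1 (9.49), Zeb2 (4.51) and Snai2 (2.94) overlapped the one before it.

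Some libraries stood out within their group for these genes. Normal library 2 had the highest value of all 7 factors among the 3 normal libraries. It also had the most Pdgfra, a fibroblast receptor gene (76.0 CPM against 21.3 and 13.8), and the most Csf1r, a macrophage receptor gene (14.9 CPM against 3.64 and 9.29). Its summed fibroblast markers, 1174 CPM, were the lowest of the 3, and its summed macrophage markers, 3093 CPM, the highest. Single fibroblast markers did not all follow that sum. Dcn was highest in library 2 (18.5 CPM against 9.67 and 10.4), and Lum (0.703 CPM) lay between the other libraries (1.59 and 0.554 CPM). Without normal library 2, the 6 factors that still passed the filter were all lower in NSCLC. Twist2 no longer passed that filter.

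The 9 resistant libraries did not share 1 order over the factors. In counts over all genes, libraries 2 and 3 were closer to each other (chi-square per gene 19.5), and so were libraries 8 and 9 (26.9), than any of the other 34 resistant pairs (63.9 to 219). The labels do not say whether such pairs share an origin, so the 9 libraries may hold fewer independent samples. With each pair summed to 1 library, an alternative chosen after seeing the data, the 5 factors were still called higher (adjusted p from 6.72e-08 for Twist1 to 8.79e-04 for Snai1) and Zeb2 and Snai2 were not (0.362 and 0.283). Libraries 2 and 3 were the highest for Twist2, Zeb1 and Zeb2, library 3 for Twist1, library 5 for Snai1, library 6 for Snai2 and library 7 for Prrx1. Library 5 combined the highest Snai1 with the lowest Twist1 and Prrx1, and library 1 had the lowest Twist2, Zeb2 and Snai1. Over the 21 pairs of factors, Pearson's r of log2 CPM across the 9 libraries passed an unadjusted exact permutation p under 0.05 in 3 pairs and an adjusted one in 0. These p-values treat the 9 libraries as exchangeable, and with the close pairs averaged (n = 7) 0 pairs passed the adjusted one either.

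**Figure D3:**
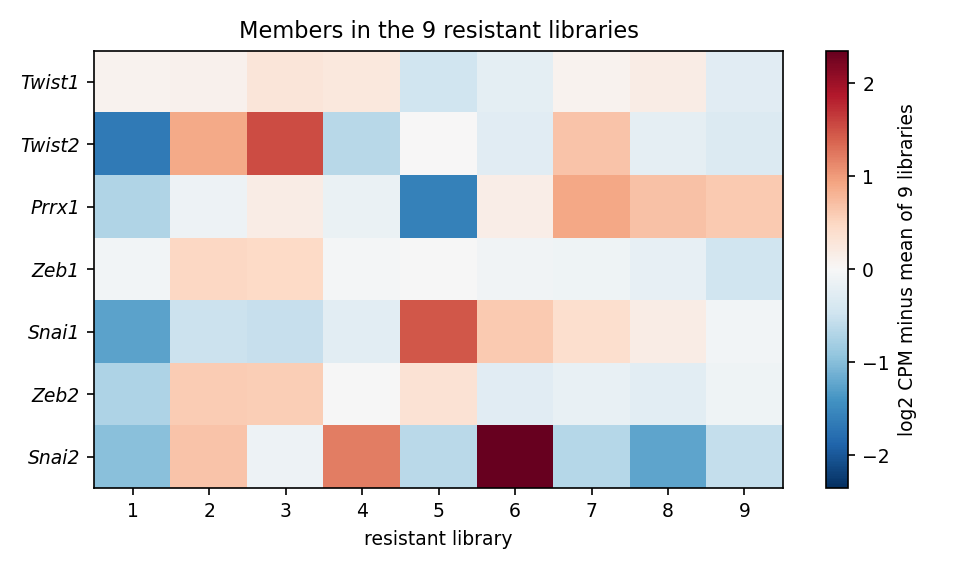
Log2 CPM of each factor (rows) in each resistant library (columns) minus its mean over the 9 libraries, red above and blue below the mean. Libraries 2 and 3 are above the mean for Twist2, Zeb1 and Zeb2, library 5 is above it for Snai1 and below it for Prrx1 and Twist1, and library 6 is highest for Snai2.

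Twist2 and Zeb2 had the highest r, 0.82 (rho = 0.67; exact two-sided permutation p = 0.00605 and 0.0589, adjusted over 21 pairs 0.127 and 0.618). Without libraries 1 and 3, the farthest from the Twist2 median, r was 0.52, and with the close pairs averaged it was 0.79 (exact permutation p = 0.0371, adjusted 0.390). For Zeb1 and Zeb2 r was 0.71 (rho = 0.68; exact permutation p = 0.0355 and 0.0503, adjusted 0.282 and 0.618) and 0.06 without libraries 2 and 3, so it rested on those libraries, which are one of the close pairs. Twist1 and Snai1 went opposite ways, with r = -0.68 (rho = -0.55; exact permutation p = 0.0404 and 0.133, adjusted 0.282 and 0.697). Their r was -0.46 without libraries 5 and 9 and -0.80 without libraries 8 and 9. With the close pairs averaged it was -0.79 (exact permutation p = 0.0310, adjusted 0.390).

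The genes whose log2 CPM ran most like each factor over the 9 resistant libraries were searched among 9416 expressed genes, as a description with no test. They were Lmf1 (r = 0.93), Ctbp2 (0.90) and Arrb2 (0.90) for Twist1, and Ifitm3 (0.98), Sh3bp2 (0.97) and Homer3 (0.97) for Twist2. For Zeb1 they were Arhgap22, Itgb1bp1 and Pcbp4 (r = 0.96 each), and for Zeb2 Bmp1 (0.98), Fbxl18 (0.97) and Camk1d (0.96). Snai1 ran most like Snhg20 (0.95), Commd4 (0.94) and Col6a1 (0.94), Snai2 like Endov (0.96), Clec16a (0.94) and Dusp18 (0.94), and Prrx1 like Styk1 (0.94), Armcx4 (0.93) and Sgsm3 (0.92).

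Of the genes for dimer partners and inhibitors of basic helix-loop-helix factors, 4 of 8 tested rose in resistant and 0 fell (median 0.68 on the log2 scale), where 19.3% of all tested genes were higher and 18.2% lower. Tcf3, which encodes the E protein partners E12 and E47 of TWIST1, rose from 75.5 ± 2.85 to 154 ± 27.3 CPM (log2FC 1.03 ± 0.17 SE, adjusted p = 6.18e-04). The E protein gene Tcf4 rose from 97.7 ± 8.53 to 315 ± 189 CPM (adjusted p = 0.0131), and missed the threshold when sensitive library 1 (0.0526) or 2 (0.0513) was left out. Tcf12, the remaining E protein gene, was at 181 ± 44.2 and 139 ± 17.1 CPM (adjusted p = 0.0739), and without sensitive library 2 it passed as lower (adjusted p = 0.0301). Id3, whose protein sequesters E proteins, rose from 10.5 ± 4.84 to 148 ± 69.2 CPM (log2FC 3.82 ± 0.54 SE, adjusted p = 2.31e-04), while Id1 and Id2 did not pass (adjusted p = 0.581 and 0.440). Scx, scleraxis of tendon progenitors, rose from 0.616 ± 0.147 to 16.9 ± 6.47 CPM (adjusted p = 1.82e-05).

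In NSCLC the same list had 2 of 11 tested higher and 3 lower (median -0.31 on the log2 scale), where 28.5% and 25% of all tested genes were, so that the list did not stand out by its counts. The lower count was 6 without NSCLC library 1. Tcf3 rose there too, from 56.3 ± 4.34 to 102 ± 14.1 CPM (log2FC 0.86 ± 0.14 SE, adjusted p = 0.00130), and Tcf24 from 1.82 ± 0.849 to 15.7 ± 3.76 CPM. Id2 fell from 257 ± 113 to 116 ± 19.2 CPM (adjusted p = 0.00803) and Scx from 10.1 ± 2.12 to 2.13 ± 0.460 CPM.

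Corepressor and chromatin genes rose more often than they fell in NSCLC, with 19 of 30 higher and 2 lower (median 0.64 on the log2 scale). Of all tested genes, 28.5% were higher and 25% lower. The lower count was 1 without normal library 2, normal library 3 or NSCLC library 3. Among them Hdac3, a histone deacetylase gene, rose from 59.5 ± 2.21 to 160 ± 9.08 CPM and Rcor1, the CoREST scaffold gene, from 41.4 ± 1.40 to 112 ± 12.8 CPM. Ctbp2, a corepressor that ZEB proteins recruit, rose from 41.2 ± 3.02 to 87.1 ± 14.6 CPM, and Kat2b, an acetyltransferase gene, fell from 90.1 ± 5.99 to 35.7 ± 4.32 CPM. In resistant the list had 6 of 29 higher, near the 19.3% of all tested genes. It had 3 lower (1 without sensitive library 3), below the 18.2% of all tested genes. Mta1, a subunit gene of the NuRD complex, rose from 84.8 ± 18.5 to 312 ± 85.3 CPM (adjusted p = 2.35e-04), and Suv39h1, a histone methyltransferase gene, from 29.8 ± 11.4 to 87.0 ± 26.9 CPM. Limd1, whose protein binds SNAIL in repressor complexes, fell from 142 ± 8.27 to 87.4 ± 10.4 CPM (adjusted p = 0.00116).

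For genes that act on the turnover of SNAIL, TWIST and ZEB proteins, 17 of 35 were higher and 3 lower in NSCLC (median 0.44 on the log2 scale; 28.5% and 25% of all tested genes), with 5 lower without NSCLC library 1 or 3. The deubiquitinase gene Usp37 rose from 17.3 ± 1.41 to 40.2 ± 0.932 CPM and the ubiquitin ligase gene Siah2 from 9.82 ± 0.723 to 31.3 ± 4.71 CPM, while Mdm2 fell from 124 ± 3.34 to 61.7 ± 2.71 CPM. In resistant 4 of 36 were higher and 2 lower (median 0.04), below the 19.3% and 18.2% of all tested genes. Without sensitive library 1 the higher count was 0, and without sensitive library 3 it was 2 with 1 lower. Btrc, the ubiquitin ligase subunit that recognises phosphorylated SNAI1, rose from 14.7 ± 1.96 to 27.8 ± 6.73 CPM (adjusted p = 0.0119; 0.0566 without sensitive library 1). Trim21 fell from 11.3 ± 1.37 to 3.45 ± 1.81 CPM (adjusted p = 0.0102). Fbxl14 and Gsk3b, a ligase subunit gene and the gene of a kinase that marks SNAI1 for degradation, did not pass in resistant (adjusted p = 0.295 and 0.198).

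Epithelial regulators that oppose the transition fell in resistant organoids and rose more often than they fell in NSCLC. In resistant 17 of 24 tested were lower and 0 higher, with a median log2 fold change of -3.10, where 18.2% of all tested genes were lower. Grhl2 fell from 82.6 ± 7.42 to 6.56 ± 8.76 CPM (log2FC -3.66 ± 0.80 SE, adjusted p = 0.00351), and Ovol2, a repressor of Zeb1, from 4.64 ± 0.792 to 0.294 ± 0.329 CPM (adjusted p = 0.00120). The epithelial splicing regulator Esrp1 fell from 287 ± 78.1 to 8.68 ± 15.6 CPM (adjusted p = 0.0103) and Esrp2 from 71.8 ± 7.83 to 9.51 ± 8.08 CPM (adjusted p = 0.00388). In NSCLC 13 of 25 were higher and 5 lower, with a median of 1.24, where 28.5% and 25% of all tested genes were. Ovol1 rose from 1.07 ± 0.278 to 14.5 ± 2.25 CPM (log2FC 3.77 ± 0.27 SE, adjusted p = 2.01e-05), Klf4 to 51.7 ± 11.3 CPM (log2FC 2.84 ± 0.26 SE) and Esrp1 from 84.5 ± 5.88 to 199.6 ± 30.3 CPM. Left-out libraries moved the lower count to 3 (normal 2, normal 3 or NSCLC 3). Grhl2 did not differ by the test in NSCLC (51.5 ± 3.29 and 53.7 ± 8.90 CPM, adjusted p = 0.761).

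**Figure D4:**
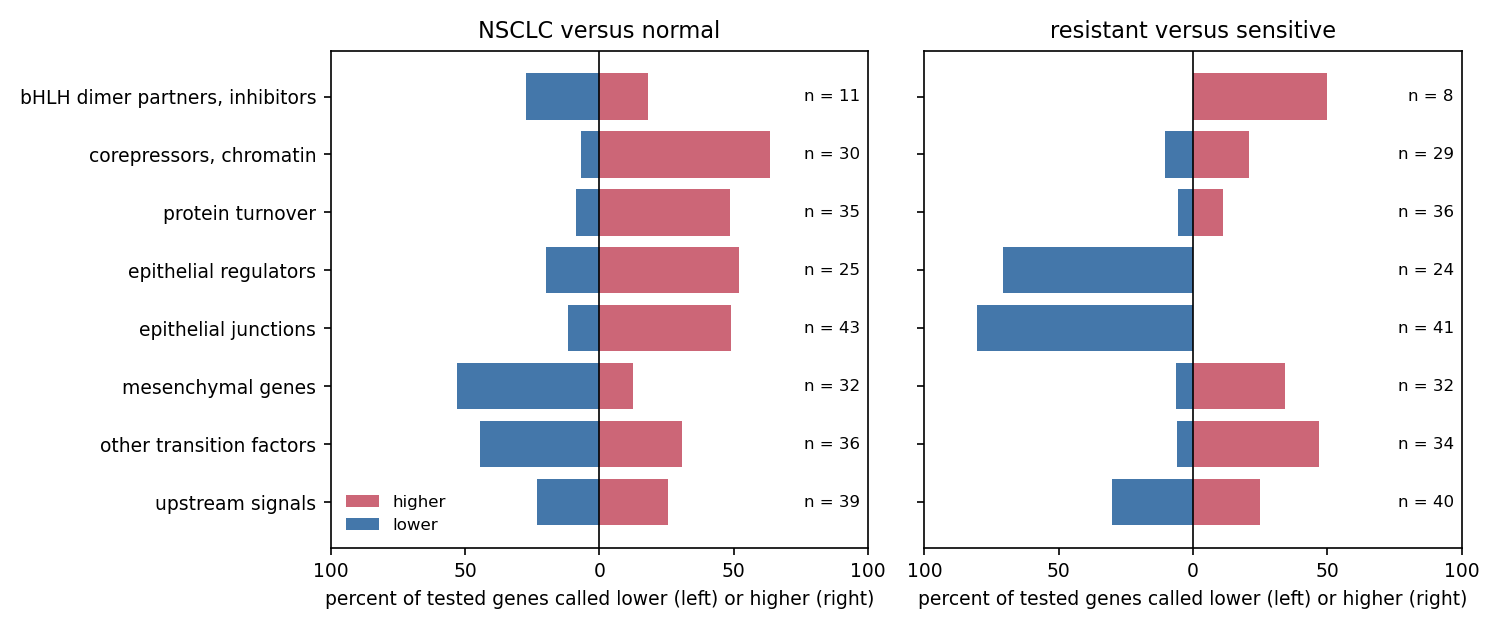
Percent of the tested genes of each list called lower (blue, left of 0) or higher (red, right of 0) at an adjusted p under 0.05, with the number tested. In resistant the epithelial regulators (17 of 24) and epithelial junctions (33 of 41) were lower with 0 higher, and in NSCLC the corepressor list (19 of 30) was mostly higher and the mesenchymal list (17 of 32) mostly lower.

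The median log2 fold change of the epithelial junction and polarity genes was -2.55 in resistant. Of these genes 33 of 41 were lower and 0 higher, where 18.2% and 19.3% of all tested genes were. The count was 19, 21 and 18 without sensitive library 1, 2 and 3, and 39 without resistant libraries 8 and 9. The count higher was 1 without resistant library 5. In 37 of the 41 genes all resistant libraries lay below the sensitive ones, as in 16.5% of all tested genes. Of the list's genes with a promoter window, 12 of the 18 called lower and 6 of the 7 not called held CAGGTG. Those 6 include Epcam, Crb3, Cldn4 and Cldn7, whose resistant libraries also all lay below the sensitive ones. The split by call thus does not part changed from unchanged genes, and whether the motif goes with the fall was not tested. Krt8 fell from 1322 ± 153 to 236 ± 92.3 CPM (adjusted p = 3.75e-05), Gjb2 from 184 ± 40.7 to 2.25 ± 5.07 CPM (adjusted p = 0.00221) and Spint2 from 1038 ± 123 to 192 ± 93.7 CPM (adjusted p = 0.00330).

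Libraries 8 and 9 had more of these epithelial transcripts than the other resistant libraries. Cdh1 had 868 to 954 CPM in sensitive libraries and ran from 0.603 (library 5) through a median of 6.70 to 170.0 CPM (library 9) in resistant (log2FC -4.46 ± 1.16 SE, adjusted p = 0.00953). In library 8 Cdh1 was at 127 CPM. Epcam, an epithelial adhesion gene, was at 237 and 323 CPM in libraries 8 and 9 and at no more than 30.3 CPM in the remaining 7. Twist1 was at 141 and 103 CPM in the same 2 libraries and Prrx1 at 247 and 234 CPM, within the range of the other 7. Zeb1 was lower in these 2 libraries, at 53.9 and 44.4 CPM, than in any of the other 7, where its lowest level was 57.7 CPM.

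Epcam, Crb3, Cldn4 and Cldn7 did not pass over all 9 resistant libraries (adjusted p = 0.0774, 0.0502, 0.237 and 0.0846), although each resistant library lay below each sensitive one. Without libraries 8 and 9 they were lower, with adjusted p of 1.77e-04, 3.10e-05, 2.35e-04 and 3.90e-05. Crb3 and Cldn7 also passed without library 8 alone (0.0317 and 0.0446), and Crb3, Epcam and Cldn7 without library 9 alone (0.0213, 0.0244 and 0.0422). limma-voom called all 4 lower over the 9 libraries, with adjusted p of 0.00132 for Epcam, 1.19e-04 for Crb3, 0.00132 for Cldn4 and 2.07e-04 for Cldn7.

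In NSCLC the junction list had 21 of 43 higher and 5 lower (median 0.44 on the log2 scale; 28.5% and 25% of all tested genes), with 8 lower without NSCLC library 1. Epcam rose from 113 ± 3.03 to 500.2 ± 69.8 CPM (adjusted p = 2.28e-05), and Krt8 rose from 313 ± 76.1 to 2909.9 ± 428 CPM (adjusted p = 3.37e-05). Cdh1 was called higher, at 663 ± 74.9 and 966 ± 164 CPM (log2FC 0.54 ± 0.18 SE, adjusted p = 0.0367), and that call was lost in 12 of 16 alternatives, with adjusted p up to 0.148 without normal library 2.

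**Figure D5:**
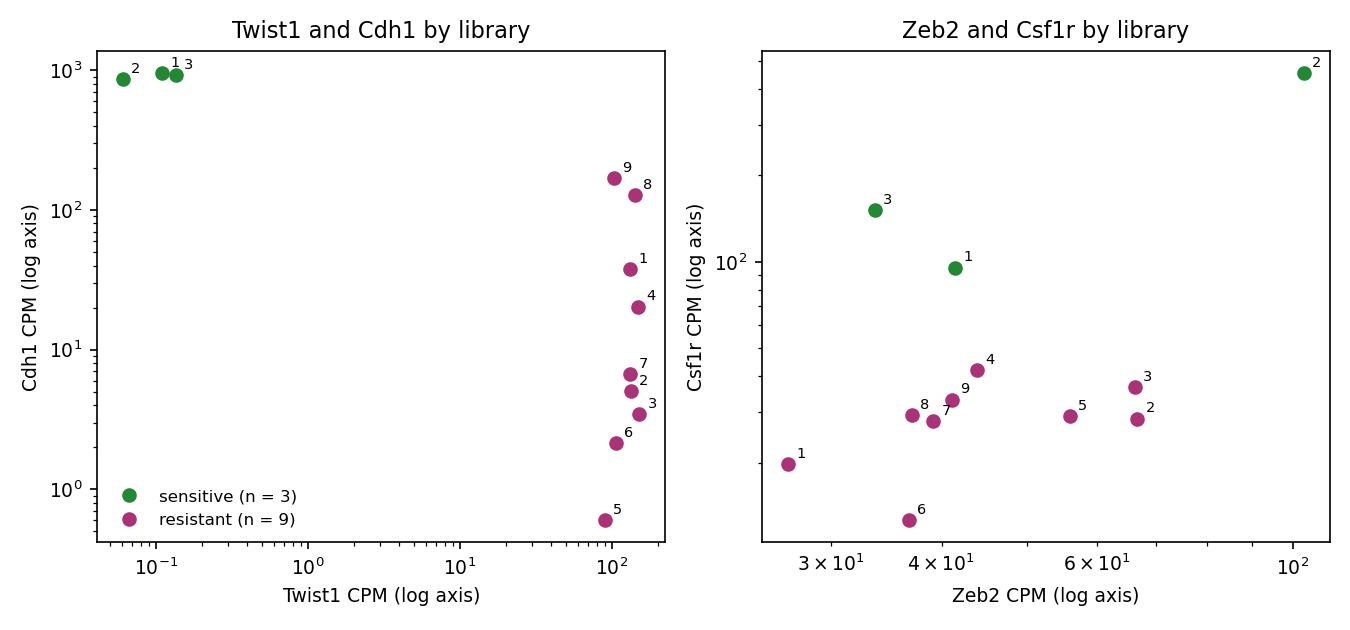
Twist1 against Cdh1 (left) and Zeb2 against Csf1r (right), in CPM on log axes, for the sensitive (n = 3) and resistant (n = 9) libraries, numbered. Resistant libraries spread from 0.603 to 170.0 CPM of Cdh1 at Twist1 levels between 89.5 and 151 CPM, and sensitive library 2 has the most Zeb2 (103 CPM) and the most Csf1r (454 CPM).

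Mesenchymal genes described as raised with these factors were lower in 17 and higher in 4 of 32 in NSCLC, where 25% and 28.5% of all tested genes were. Their median was -2.22 on the log2 scale, and 2 were higher without normal library 2 or 3. In resistant 11 of 32 were higher and 2 lower (median 1.80), where 19.3% and 18.2% of all tested genes were. DESeq2 called 19 of them higher in resistant. In NSCLC the receptor genes Pdgfra and Pdgfrb fell, Pdgfrb from 10.8 ± 7.30 to 0.0323 ± 0.0101 CPM (adjusted p = 1.62e-05). Cdh2, the N-cadherin gene, fell from 1.11 ± 0.180 to 0.0543 ± 0.0332 CPM (adjusted p = 4.74e-04), and Cd44, an adhesion gene also found on epithelial tumour cells, rose from 33.1 ± 6.82 to 203 ± 34.7 CPM. The vimentin gene Vim and the fibronectin gene Fn1 were called in neither direction in NSCLC. Vim was at 11.1 to 76.9 CPM in normal and 4.51 to 191 CPM in NSCLC, and Fn1 at 202 to 462 and 57.5 to 447 CPM. In resistant, Lgals1, the galectin 1 gene, rose from 32.6 ± 20.6 to 756 ± 209 CPM (adjusted p = 1.93e-05), and Nt5e, the CD73 gene, fell from 598 ± 187 to 70.1 ± 33.0 CPM (adjusted p = 6.61e-05). Cdh2 was at 0.773 ± 0.599 and 4.43 ± 4.80 CPM and did not pass (adjusted p = 0.159).

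Dnm3os, a noncoding RNA that carries microRNA precursors and is a known target of TWIST1 in mouse, had 0 counts in 2 sensitive libraries and 0.122 CPM in the other. In resistant libraries it ran from 0.370 CPM in library 1 through a median of 23.0 to 74.2 CPM in library 3 (adjusted p = 0.00128). Library 3 was also the highest for Twist1 and Twist2. Library 1 was the lowest for Twist2 but not for Twist1, which was at 132 CPM there, near its median, and lowest in library 5. A relation of Dnm3os to either factor was not tested. The call did not hold in limma-voom (adjusted p = 0.147).

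Of the other transition factors, 11 of 36 were higher in NSCLC, near the 28.5% of all tested genes, and 16 were lower, where 25% of all tested genes were (median log2 fold change -0.08). In resistant 16 of 34 were higher and 2 lower (median 1.43), where 19.3% and 18.2% of all tested genes were. In NSCLC the mesenchymal homeobox gene Meox2 fell from 5.78 ± 0.529 to 0.00615 ± 0.00790 CPM (adjusted p = 2.24e-05), and the T-box gene Tbx3 fell from 3.30 ± 2.05 to 0.00576 ± 0.00390 CPM (adjusted p = 3.44e-05). Hmga2, an architectural chromatin protein gene, rose in both comparisons, from 1.81 ± 0.450 to 20.5 ± 5.95 CPM in NSCLC and from 83.4 ± 21.6 to 515 ± 211 CPM in resistant. In resistant the Hippo pathway factor gene Tead2 rose from 3.26 ± 0.812 to 69.8 ± 34.2 CPM (adjusted p = 4.41e-05) and Klf8 from 0.321 ± 0.148 to 5.05 ± 1.19 CPM (adjusted p = 4.46e-05). Foxc2 did not pass there (adjusted p = 0.147).

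Of the upstream signals, 10 of 39 were higher and 9 lower in NSCLC, near the shares of all tested genes (28.5% and 25%). In resistant 10 of 40 were higher and 12 lower, where 19.3% and 18.2% of all tested genes were. Tgfb3, a TGF-beta ligand gene, rose in resistant from 1.38 ± 0.448 to 62.7 ± 14.7 CPM (log2FC 5.50 ± 0.34 SE, adjusted p = 7.20e-07). Tgfb2 rose from 0.596 ± 0.167 to 3.79 ± 1.61 CPM (adjusted p = 0.00193), and the receptor gene Tgfbr2 fell from 233 ± 3.07 to 127 ± 37.6 CPM (adjusted p = 0.0103). Fzd2, a Wnt receptor gene, rose from 6.39 ± 0.102 to 62.5 ± 11.3 CPM (adjusted p = 1.92e-06). In NSCLC the ligand genes Hgf, Il6 and Tgfb2 fell, Tgfb2 from 60.8 ± 19.5 to 1.15 ± 0.860 CPM (adjusted p = 1.65e-04), and Hif1a rose from 71.7 ± 5.70 to 190.1 ± 16.2 CPM.

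Reads over the miR-200 precursors were few, and in libraries of mRNA they do not measure the mature forms whose seeds are given above. The Mir200c row had 0 counts in each normal library and 20, 33, 22 and 15 in the deeper NSCLC libraries, or 0.167 ± 0.0488 CPM (adjusted p = 0.00651). That mean is 1.19 times the level that 3 counts make in the shallowest normal library, so 0 counts there do not bound the change far from 1. Mir200a had 4, 1 and 1 counts in normal and 9, 30, 14 and 16 in NSCLC. Of the 4 microRNA genes tested in NSCLC, Mir200c was higher and Dnm3os lower, and in resistant Dnm3os was the 1 gene tested. In the sensitive and resistant table no miR-200 row had more than 3 counts in a library, so no difference was detectable there at this depth.

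Markers of other cell types differed between the groups in both tables. The summed level of 18 macrophage markers was 1629 to 3093 CPM in normal and 98.8 to 175 CPM in NSCLC, all 18 being detected in each group. In sensitive libraries 1 to 3 it was 3922, 8518 and 3475 CPM, and Csf1r was at 95.5, 454 and 151 CPM, so that library 2 had the most of both and the most Zeb2. In resistant libraries the sum was 539 to 1832 CPM, highest in library 4, whose Zeb2 was 43.9 CPM, while libraries 2 and 3, with the most Zeb2, had 840.3 and 767 CPM. The part of macrophage RNA in the Zeb2 result was not tested.

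The summed level of 20 fibroblast markers was 1174 to 1732 CPM in normal and 265 to 636 CPM in NSCLC, where Tcf21, Lum and Dpt were at 0 and Dcn at 0.0579 CPM or less. In sensitive libraries it was 175 to 246 CPM, with 13 to 16 markers detected per library and Dpt and Ogn at 0. In resistant libraries it was 414 to 793 CPM, with 15 to 18 detected per library and all 20 over the group. Of the 20 markers, 11 passed the filter on low counts in resistant against sensitive. Of these, 8 were higher and 2, Limch1 and Pi16, lower, where 19.3% and 18.2% of all tested genes were. Ogn and Lum, which had 0 and at most 3 counts in a sensitive library, passed that filter through the resistant group alone. They could be called only as higher. Dcn was at 3.58 to 5.91 CPM in sensitive and 5.78 to 41.3 CPM in resistant, and Lum at most at 0.183 and 3.18 CPM. Pdgfra was at 1.15 to 4.45 CPM in sensitive and ran from 6.70 CPM in library 1 to 272 CPM in library 5, the resistant library with the least Prrx1 and Twist1. The part of fibroblast RNA in the results on Twist1, Twist2, Zeb1, Snai1 and Prrx1 was not tested. The epithelial identity markers checked against the label of tumour organoids summed to 5355 to 7044 CPM in sensitive and 295 to 2349 CPM in resistant libraries. Summed endothelial markers were 118 to 148 CPM in normal, 15.3 to 21.7 CPM in NSCLC, 19.5 to 29.0 CPM in sensitive and 17.2 to 56.6 CPM in resistant. Smooth muscle and pericyte markers summed to 18.4 to 41.1 CPM in normal and 9.51 to 83.1 CPM in NSCLC, and to 11.3 to 18.2 CPM in sensitive and 14.3 to 55.7 CPM in resistant (medians 13.3 and 44.2 CPM). Lymphocyte markers summed to 4.44 to 5.32 CPM in normal, 1.33 to 3.53 CPM in NSCLC, a median of 11.2 CPM in sensitive and 1.42 to 34.6 CPM in resistant. Mesothelial markers, which include the epithelial keratin gene Krt19, were 547.6 to 939 CPM in normal, 2502 to 5366 CPM in NSCLC, 893 to 2363 CPM in sensitive and 52.5 to 619.7 CPM in resistant.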

How the data were processed

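The labels' protocols describe stranded mRNA library preparation and paired-end NovaSeq sequencing. STAR 2.6.0a, DESeq2 1.26.0 and mm10 appear in the submitters' processing notes. No source used here gives the read counter, its strand setting or the annotation. Whole-number read counts per gene, as the authors deposited them in a table per comparison, are the measurement. Values from the authors' deposited log2 and p-value columns, named per the file headers, are quoted only where this is said. A further 19 columns of values per library were not used.

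Each table was analysed on its own. Genes were filtered with filterByExpr, libraries scaled by TMM, and groups compared with edgeR 4.0.16 (glmQLFit and glmQLFTest, R 4.3.3) with Benjamini-Hochberg adjustment over all tested genes at 0.05. The SE is the fold change over the root of F. CPM is the count over the scaled library size, and log2 CPM used a prior count of 2. The scripts were tested on simulated data. All 7 genes passed the filter, so the permutation test planned for filtered genes was not needed. The alternatives were DESeq2 1.42.0, limma-voom (limma 3.58.1), other scalings and filters, thinned counts, a replicate block, and leaving out libraries. Gene positions are from GENCODE M21 (mm10), transcript length is that of the longest coding transcript, and promoters and microRNAs are from RefSeq tables (GRCm38.p6), where 5 of the 7 factors had a promoter.

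The genes, the 9 pathway lists and the 7 marker lists were chosen with earlier results of these data known. Named are the 7 factors, 33 further fixed genes, up to 3 genes with the smallest adjusted p per list and comparison, and the 3 genes most like each factor (mean log2 CPM of at least 3). Csf1r, Pdgfra, Dcn, Lum, Tcf21, Dpt and Ogn, as defining markers, the promoters to print and the other genes outside this rule were chosen after their values were seen. The labels do not tell whether the libraries of a group are separate animals or cultures. The p-values thus cover only the spread among these libraries, which may be technical. No 2 libraries of a group were identical or within sampling noise, and the close resistant pairs were also summed as an alternative chosen after seeing the data.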

Additional observations from a re-analysis of the deposited data

Results flagged for a closer look

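Among 80 combinations of a gene and a group of 4 or 9 libraries, 13 had a highest library that stood apart from its group by Dixon's criterion at 95%. The chance rate of that criterion, about 1 in 20 groups, covers an outlier at either end and is lower for the highest library alone. It holds for normally distributed values and is not known for these CPM. Among the factors these were Twist1 in NSCLC library 1 (0.129 CPM, 16 counts; the next library 0.0418 CPM), Twist2 in NSCLC library 3 (0.0165 CPM, 2 counts) and Snai2 in NSCLC library 3 (0.00827 CPM, 1 count), where the other 3 libraries had 0 counts. With 0 counts in the other libraries, any count at all meets the criterion. In the resistant group Snai1 stood apart in library 5 (44.4 CPM; the next 24.9 CPM) and Snai2 in library 6 (45.6 CPM; the next 20.4 CPM).

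Of the further genes, Vim, the vimentin gene, was at 191 CPM in NSCLC library 3 against at most 32.7 CPM in the other 3, and Cldn7 was at 554 CPM in the same library. In NSCLC library 1 Esrp1 was at 245 CPM and Tgfb1 at 84.4 CPM. Resistant library 5, the one with the most Snai1, also stood apart in Fn1, the fibronectin gene (4974 CPM; the next 1841 CPM), and in Prrx2 (115 CPM; the next 36.6 CPM). Resistant library 1 stood apart in Ctbp1 (253 CPM) and Foxc2 (4.44 CPM, 96 counts).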

How the results depend on the processing

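Of 267 refits of a factor's fold change under an alternative, 266 kept the direction and the side of the threshold. The exception was Zeb2 in resistant against sensitive, which had a log2 fold change of 0.29 (adjusted p = 0.520) without sensitive library 2 and ranged from -0.65 to 0.29 when 1 library was left out. In NSCLC, Twist1 had adjusted p from 0.00126 to 0.0487 over its 14 alternatives. Where NSCLC counts were thinned to the normal depth, Twist1 and Twist2 did not pass the filter, and the other 5 factors were lower. Their fall was thus not tested at equal depth. With a filter of at least 1 CPM, Twist1, Twist2 and Zeb1 did not pass, and the other 4 were lower. Refits in which a factor did not pass are not among the 267. Over all genes, the count higher in resistant was 1765 to 2867 when 1 library was left out, lowest without sensitive library 3 and at 1800 without sensitive library 1, against 2768. Under upper quartile scaling the median log2 fold change of all genes in NSCLC moved from 0.11 to -0.08, which turned the direction of none of the 7 factors. Of the list counts under alternatives, 651 stayed within 1.5 times and 51 moved further. These include the mesenchymal list in resistant, with 19 higher in DESeq2 against 11.

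Libraries with the same replicate number did not deviate together, with r of -0.01, 0.02 and -0.02 in the NSCLC table and 0.14, 0.15 and -0.09 in the resistant table, so the numbers were not taken as pairs. With the replicate number as a block, 1983 genes were higher and 2287 lower in resistant, 4728 higher and 4211 lower in NSCLC, and no factor's call changed. Among the other genes named, Tgfb2 (resistant, adjusted p = 0.0545), Mir200c (NSCLC, 0.0556) and Cdh1 (NSCLC, 0.111) were not called under the block. Id1 (0.0465), Foxc2 (0.0436), Epcam (0.00134), Crb3 (0.00298), Cldn4 (9.19e-04) and Cldn7 (0.00369) were called in resistant under it. With resistant libraries 2 and 3, and 8 and 9, summed as 1 library each, 2573 genes were higher and 2513 lower in resistant, and Crb3 was called (adjusted p = 0.0411). Counts of 20 or fewer in every library limit Twist1, Twist2, Zeb2, Snai2 and Prrx1 in NSCLC and Twist1 and Twist2 in normal organoids. The same holds for Twist1, Twist2 and Snai1 in sensitive organoids. In these groups a few reads set the fold.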
